A study of Mus musculus with 40 samples.

Results

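The effects of a pair of epigenetic drugs on B16F10 melanoma tumours were set against each other, gene by gene, as the effect of OTX015 minus the effect of guadecitabine. B16F10 is a mouse melanoma line, and all tumours were grown by injecting its cells under the skin of C57black6J mice at 8 weeks of age. The arrays were 32 of the 40 in the series. They comprised 10 tumours of mice given OTX015 by mouth with 11 untreated tumours of the same experiment, and 6 tumours of mice given guadecitabine into the abdominal cavity with 5 untreated tumours of that experiment. The remaining 8 arrays, 4 of OTX015-treated and 4 of untreated B16F10 cultures, entered only where cultures are named. Dose, length of treatment, sex of the mice and pooling are not given in the sources used here, nor whether replicates are separate mice, so the p-values measure the spread between these arrays, which may be partly technical. Each drug had its own experiment with its own controls, so drug and experiment cannot be told apart in the difference of the effects. Of 17097 named genes, 9506 lay above background in at least 1 of the 4 tumour groups, background being a log2 level of 4.51, the 95th percentile of olfactory and vomeronasal receptor probe sets. All tumour levels are log2 intensities after quantile normalization of the 32 arrays together, and all tumour effects are differences of group means on that scale.

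OTX015 blocks the bromodomains of the BET proteins, which bind acetylated histones and recruit the elongation factor P-TEFb to enhancers and promoters. Genes read from large enhancers, among them inflammatory and interferon-driven genes, are known to depend on BET proteins. Guadecitabine releases decitabine, a nucleoside that is built into DNA, traps DNA methyltransferases and lowers methylation as cells divide. Loss of methylation is known to open germline genes and endogenous retroelements, and double-stranded RNA from such elements can set off an interferon response in tumour cells.

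By their labels the tumour samples are melanocyte cells, with no sorting named. The mean of 17 melanocyte markers was 9.34 to 9.81 in OTX015 tumours, 9.28 to 9.74 in their controls, 9.49 to 10.11 in guadecitabine tumours and 9.58 to 9.97 in their controls. Macrophage markers were also present, with 21 of 26 above background and a mean over the list of 4.56 to 5.93 in OTX015 tumours, 5.48 to 7.06 in their controls, 4.57 to 5.71 in guadecitabine tumours and 5.32 to 5.78 in their controls, so the samples are read here as whole tumours. In these, fewer cells of a type and less RNA per cell cannot be told apart. Only 3 of 22 T and NK cell markers lay above background. The 2 control groups differed from each other in 6300 genes (36.8% of those tested, limma). The mean of Malat1, Neat1 and Kcnq1ot1, 3 RNAs retained in the nucleus, was 5.05 to 5.85 in OTX015 tumours, 5.08 to 5.99 in their controls, 5.19 to 8.50 in guadecitabine tumours and 6.57 to 8.31 in their controls. Its range was widest within the guadecitabine experiment, and fits with it as a covariate are given with the classes.

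The drugs' effects differed in 606 genes at an adjusted p under 0.05 (3.54% of those tested, limma with Benjamini-Hochberg adjustment), 238 with the higher effect under OTX015 (1.39%) and 368 with the lower (2.15%). On the deposited values, where the arrays of OTX015 tumours lie lower throughout and the median OTX015 effect over all genes was -0.21 instead of 0.005, the split was 76 higher against 5160 lower, and with cyclic loess it was 305 against 228. Without the third control tumour of the guadecitabine experiment the lower count was 233. Of the 283 called genes above background (2.98%), 169 had a negative OTX015 effect and a positive guadecitabine effect, 71 the reverse, 31 had both effects above 0 and 12 both below. Across all genes above background the signs matched in 53.1%, with Pearson's r = 0.153 and Spearman's rho = 0.0797 between the effects, across genes that are not independent replicates. The OTX015 effect passed its own test in 2445 genes (14.3%) and the guadecitabine effect in 103 (0.602%). The guadecitabine count moved with single arrays. It was 35 without control tumour 3 of its experiment, 40 without control 2, 55 without control 4 and 280 without control 5. Without guadecitabine tumour 2, 5 or 6 it was 155, 158 or 168.

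Genes were put in a class of opposite movement when the difference of the effects was called, the gene lay above background, and the effects had opposite signs each with an unadjusted p under 0.05. They were put in a class of like movement when the average of the effects was called and both effects had the same sign under the same conditions. By this rule 69 genes were lower with OTX015 and higher with guadecitabine (0.726% of genes above background), 22 were higher with OTX015 and lower with guadecitabine (0.231%), 135 were higher with both (1.42%) and 46 were lower with both (0.484%). Without the third control tumour of the guadecitabine experiment these counts were 41, 11, 83 and 26 in the same order. Single further arrays also moved them: the first class counted 45 genes without control tumour 4 of that experiment, 111 without control tumour 5 and 104 without guadecitabine tumour 5, the second 14 without control tumour 1 and 41 without control tumour 5, and the last 29 without guadecitabine tumour 3. Both drugs' own tests passed at once in 11 genes above background. Of the 9506 genes above background, OTX015 passed its own test in 944 and guadecitabine in 86. Adjusted over all genes, the larger of the unadjusted p-values of the drugs called 0 genes with limma (lowest adjusted p = 0.21), against 320 genes above background with both effects at an unadjusted p under 0.05 and 2 called genes with array weights. Without control tumour 4 of the OTX015 experiment, or without guadecitabine tumour 5, it called 1. Over all 17097 genes, 4462 had an unadjusted p under 0.05 with OTX015 and 1902 with guadecitabine (limma). Whether the overlaps exceed what these counts would give was not tested.

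**Figure D1:**
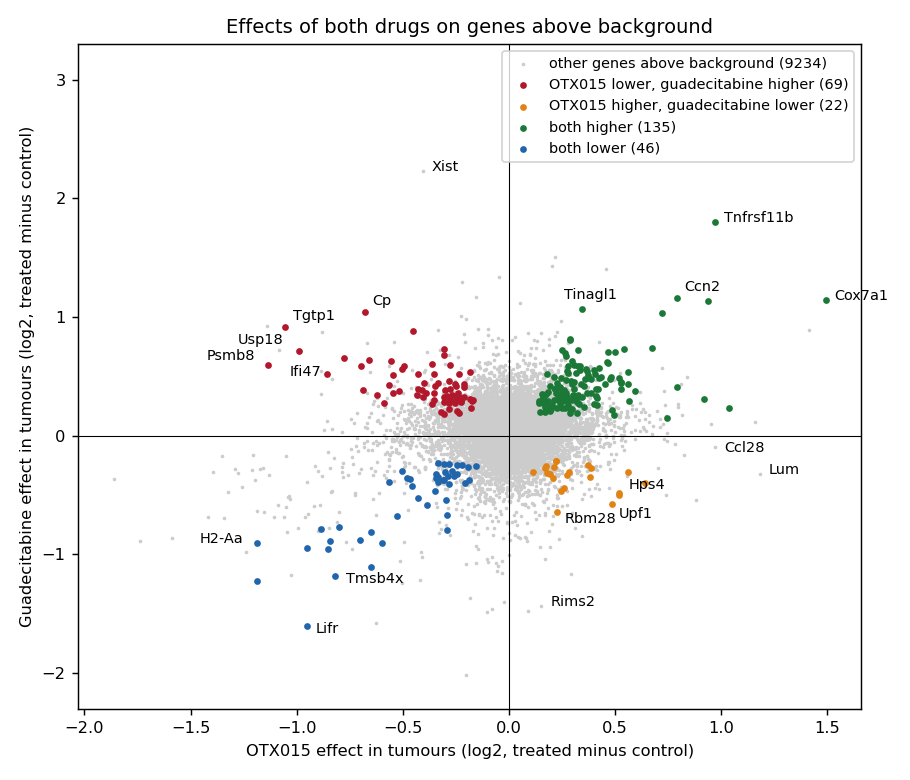
Effect of OTX015 (horizontal axis) and of guadecitabine (vertical axis) on each gene above background, both as log2 treated minus control in tumours; coloured points are the 69, 22, 135 and 46 genes of the 4 classes and grey points all others. The interferon-induced genes Tgtp1, Psmb8, Usp18 and Ifi47 lie at the upper left, and Lifr lies lowest among the genes lower with both drugs.

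The genes lower with OTX015 and higher with guadecitabine held interferon-induced genes at their head. Among the 8 of the class with the largest differences, 6 are of this kind: the immunity-related GTPases Tgtp1, Ifi47 and Igtp, the guanylate-binding protein Gbp2, Psmb8, a catalytic subunit of the immunoproteasome that cuts peptides for MHC class I, and Usp18, which removes ISG15 from proteins and damps interferon signalling. The difference of the effects was -1.97 ± 0.39 (SE, adjusted p = 0.0034) for Tgtp1, -1.73 ± 0.32 (SE, adjusted p = 0.0013) for Psmb8 and -1.71 ± 0.30 (SE, adjusted p = 0.0008) for Usp18. It was -1.43 ± 0.25 (SE, adjusted p = 0.0009) for Ifi47, -1.38 ± 0.26 (SE, adjusted p = 0.0019) for Gbp2 and -1.30 ± 0.24 (SE, adjusted p = 0.0013) for Igtp. All 6 kept their call in each of the 48 alternatives run. Each had an OTX015 effect that passed its own test and a guadecitabine effect that did not, at adjusted p-values of 0.12 to 0.38. The probe set of Tgtp1 may also take up its near-identical neighbour, and such copies cannot be told apart here.

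The promoters of 3 of these genes are shown because they hold the spaced GAAA pair that interferon regulatory factors bind, searched as GAAANNGAAA on both strands. The 300-base windows run across the gene's start, mostly upstream of it, in the RefSeq annotation of GRCm38.p6, are written 5′ to 3′ on the gene's strand, and have in capitals the bases matching GAAANNGAAA or TTCNNNGAA, the palindromic core of STAT sites. Igtp is at chr11:58199306-58199605, plus strand, Tgtp1 at chr11:48992197-48992496, minus strand and Gbp2 at chr3:142620413-142620712, plus strand.
Igtp: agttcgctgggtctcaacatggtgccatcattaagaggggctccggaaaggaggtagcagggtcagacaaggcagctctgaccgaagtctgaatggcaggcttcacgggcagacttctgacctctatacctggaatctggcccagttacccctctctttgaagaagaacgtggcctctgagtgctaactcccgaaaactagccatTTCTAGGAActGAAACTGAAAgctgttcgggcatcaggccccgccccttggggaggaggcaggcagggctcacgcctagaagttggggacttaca
Tgtp1: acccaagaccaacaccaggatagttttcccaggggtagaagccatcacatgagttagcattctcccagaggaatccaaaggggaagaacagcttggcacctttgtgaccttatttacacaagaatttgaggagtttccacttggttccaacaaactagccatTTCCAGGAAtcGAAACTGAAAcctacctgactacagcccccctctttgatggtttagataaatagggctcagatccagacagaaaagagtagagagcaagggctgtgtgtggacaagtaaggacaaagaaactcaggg
Gbp2: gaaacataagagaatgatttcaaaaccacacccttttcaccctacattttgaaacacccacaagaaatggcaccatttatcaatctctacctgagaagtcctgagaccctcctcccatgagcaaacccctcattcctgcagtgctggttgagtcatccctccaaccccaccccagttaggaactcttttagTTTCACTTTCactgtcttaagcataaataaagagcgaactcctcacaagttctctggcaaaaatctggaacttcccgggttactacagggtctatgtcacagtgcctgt
Of the 60 genes of the class with a promoter in the table, 7 held GAAANNGAAA (11.67%), against 265 of 7762 genes above background (3.41%). TTCNNNGAA stood in 6 of them (10.0%), against 8.0% of genes above background. Psmb8, Psmb9 and Ifi47 had a promoter in the table without GAAANNGAAA in this window. A match of letters is not a shown binding site.

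Tgtp1 lay at 5.05 to 5.96 (median 5.58) in the 10 OTX015 tumours, against 5.12 to 7.55 (median 6.54) in their 11 controls. Under guadecitabine, Tgtp1 lay at 5.90 to 7.30 (median 6.70) in 6 tumours, against 4.87, 6.04, 6.40, 5.17 and 6.21 in the 5 controls of that experiment. The OTX015 tumours sat in the lower part of their controls' range and overlapped it, and the guadecitabine tumours reached higher than their controls, also with overlap. Psmb8 lay at 4.83 to 5.80 (median 5.50) in the 10 OTX015 tumours, against 5.49 to 7.55 (median 6.52) in their 11 controls. Under guadecitabine, Psmb8 lay at 5.84 to 7.21 (median 6.38) in 6 tumours, against 5.42, 6.04, 5.89, 5.59 and 6.19 in the 5 controls of that experiment. Its groups overlapped in the same way under both drugs. A second Psmb8 probe set, which lay below background, had a difference of -0.19.

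Usp18 lay at 3.46 to 4.60 (median 3.88) in the 10 OTX015 tumours, against 4.04 to 5.50 (median 5.09) in their 11 controls. Under guadecitabine, Usp18 lay at 4.43 to 5.74 (median 5.17) in 6 tumours, against 4.22, 4.28, 4.31, 4.42 and 5.25 in the 5 controls of that experiment. The highest of the 5 controls stood well above the other 4, and all 6 guadecitabine tumours lay above those 4. Ifi47 lay at 4.61 to 5.03 (median 4.80) in the 10 OTX015 tumours, against 4.83 to 6.46 (median 5.53) in their 11 controls. Under guadecitabine, Ifi47 lay at 5.07 to 6.05 (median 5.60) in 6 tumours, against 4.60, 4.95, 4.98, 4.69 and 5.25 in the 5 controls of that experiment. 6 of the 10 OTX015 tumours lay below all 11 controls, and 4 of the 6 guadecitabine tumours above all 5 of theirs. Igtp lay at 4.50 to 5.34 (median 4.89) in the 10 OTX015 tumours, against 5.20 to 6.28 (median 5.53) in their 11 controls. Under guadecitabine, Igtp lay at 5.07 to 6.50 (median 5.84) in 6 tumours, against 4.94, 4.98, 5.46, 5.08 and 5.55 in the 5 controls of that experiment. Here 8 of the 10 OTX015 tumours lay below all of their controls, and 5 of the 6 guadecitabine tumours above all of theirs.

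Psmb9, the partner subunit of Psmb8 in the immunoproteasome, differed by -1.18 ± 0.22 (SE, adjusted p = 0.0018), with effects of -0.56 with OTX015 and 0.63 with guadecitabine. Ifit3, an interferon-induced RNA-binding protein, had effects of -0.70 with OTX015 and 0.59 with guadecitabine, and Xaf1, an interferon-induced promoter of apoptosis, of -0.57 with OTX015 and 0.43 with guadecitabine. Ccl5, a chemokine that draws T cells, had effects of -0.55 with OTX015 and 0.51 with guadecitabine with a difference of -1.06 ± 0.29 (SE, adjusted p = 0.031). Ccl5 lost its call without guadecitabine-experiment control 1, 2 or 4, or guadecitabine tumour 1 or 2 (adjusted p = 0.0531 to 0.0733). The class also held the interferon-induced membrane protein Ifitm3 (-0.35 with OTX015 and 0.30 with guadecitabine), the complement protease C1s1 (-0.50 with OTX015 and 0.56 with guadecitabine), the class Ib gene H2-T10 (-0.31 with OTX015 and 0.73 with guadecitabine) and the macrophage receptor Siglec1 (-0.28 with OTX015 and 0.28 with guadecitabine).

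Read by list, 5 of 21 measured genes of the interferon gamma response were called lower in the difference, against 2.15% of all genes. The median effect of the list was -0.37 with OTX015 and 0.26 with guadecitabine, against 0.005 and 0.049 over all genes. In this list 16 of 21 genes had a negative OTX015 and a positive guadecitabine effect, against 31.2% of all genes. Among those without a call in the difference were the chemokine Cxcl9 (-0.55 with OTX015 and 0.23 with guadecitabine), the checkpoint ligand Cd274 (-0.47 with OTX015 and 0.06 with guadecitabine) and the transcription factor Irf1 (-0.08 with OTX015 and -0.04 with guadecitabine). Of 27 type I interferon response genes, 8 were called lower, with medians of -0.21 with OTX015 and 0.16 with guadecitabine. These were Usp18, Ifit3, Xaf1, Ifit1 (-0.66 with OTX015 and 0.54 with guadecitabine), Cmpk2 (-0.66 with OTX015 and 0.15 with guadecitabine), the RNA sensor Ddx58 (-0.03 with OTX015 and 0.53 with guadecitabine) and, below background, Ddx60 and Oasl1. The type I count was 3 without control tumour 1 and 3 without control tumour 3 of the guadecitabine experiment, 4 without control tumour 2 and 4 without control tumour 4, and 4 with the nuclear-retained RNA covariate. The interferon gamma count was 8 without control tumour 5 of that experiment. 

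In the list of class I antigen presentation, of 15 genes 5 were called lower in the difference, against 2.15% of all genes, and 13 had a negative OTX015 and a positive guadecitabine effect, against the same 31.2% of all genes. The called number was 3 without control tumour 2 or 4 of the guadecitabine experiment and 8 without guadecitabine tumour 2. The median difference was -0.81, against -0.040 over all genes. The classical heavy chain H2-K1 had effects of -0.54 with OTX015 and 0.42 with guadecitabine, H2-Q4 of -0.83 with OTX015 and 0.48 with guadecitabine, and the class Ib chain H2-M3 of -0.58 with OTX015 and 0.32 with guadecitabine. Psmb8 and Psmb9 were the other called members and belong to the interferon gamma list as well. H2-D1 (-0.53 with OTX015 and 0.46 with guadecitabine) did not pass, and the peptide loading factors Tapbp (-0.43 with OTX015 and 0.12 with guadecitabine) and Pdia3 (-0.05 with OTX015 and 0.15 with guadecitabine) did not either. The heavy chain genes resemble one another, so a probe set of one may take up another. Of the T and NK cell markers, Cd3g, which lay below background, was called lower in the difference (-0.44), and the 3 above background were not called. Cd3g lost its call without guadecitabine-experiment control 2, 3 or 4, or guadecitabine tumour 1, 2 or 4 (adjusted p = 0.0511 to 0.0676), with median centring (adjusted p = 0.0532) and with the nuclear-retained RNA covariate (adjusted p = 0.0622). Over that list the mean level was 3.66 to 3.81 in OTX015 tumours, 3.68 to 4.02 in their controls, 3.48 to 3.72 in guadecitabine tumours and 3.55 to 3.64 in their controls, below the background level throughout.

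Of 23 measured p53 targets, 4 were called lower in the difference, against 2.15% of all genes: Ccng1, which encodes cyclin G1, Phlda3, which competes with Akt at the membrane, the nuclease Aen and the stress protein Trp53inp1. The list medians were -0.16 with OTX015 and 0.19 with guadecitabine, and with the nuclear-retained RNA covariate 8 were called. Ccng1 lay at 8.34 to 8.86 (median 8.45) in the 10 OTX015 tumours, against 8.40 to 9.51 (median 9.01) in their 11 controls. Under guadecitabine, Ccng1 lay at 8.29 to 9.57 (median 8.94) in 6 tumours, against 8.02, 8.28, 8.47, 8.59 and 8.66 in the 5 controls of that experiment. 5 of the 6 guadecitabine tumours lay above all 5 controls, and 1 OTX015 tumour lay below its controls. The difference was -1.08 ± 0.22 (SE, adjusted p = 0.0042) for Ccng1, -0.95 ± 0.18 (SE, adjusted p = 0.0021) for Phlda3 and -0.78 ± 0.18 (SE, adjusted p = 0.0096) for Aen. Trp53inp1 differed by -1.43 ± 0.35 (SE, adjusted p = 0.017), with effects of -0.88 with OTX015 and 0.55 with guadecitabine. Its second probe set, below background, had a difference of -0.42. Aen lost its call with median centring (adjusted p = 0.0786) and Trp53inp1 with a replicate block (adjusted p = 0.051). That block gives tumours of the same replicate number a shared term across both experiments, although the labels do not link them. The canonical target Cdkn1a (-0.21 with OTX015 and 0.79 with guadecitabine) did not pass, Mdm2 (-0.38 with OTX015 and -0.02 with guadecitabine) did not, and Gadd45a was above 0 with both drugs (0.49 with OTX015 and 0.47 with guadecitabine). Immediate early genes, transcribed within minutes of a stimulus, had a median difference of -0.79 over 22 genes. Only the MAP kinase phosphatase Dusp1 was called, at -1.80 ± 0.48 (SE, adjusted p = 0.028), against 2.15% of all genes called lower. That call was lost without guadecitabine-experiment control 1, 2 or 3, or guadecitabine tumour 2 (adjusted p = 0.0506 to 0.0664). It was also lost with median centring (adjusted p = 0.0504), array weights (0.055), group variances (0.0621), the replicate block (0.066) and the nuclear-retained RNA covariate (0.054). Fos (-0.88 with OTX015 and 0.87 with guadecitabine), Egr1 (-0.69 with OTX015 and 1.04 with guadecitabine) and Jun (-0.67 with OTX015 and 0.78 with guadecitabine) did not pass.

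**Figure D2:**
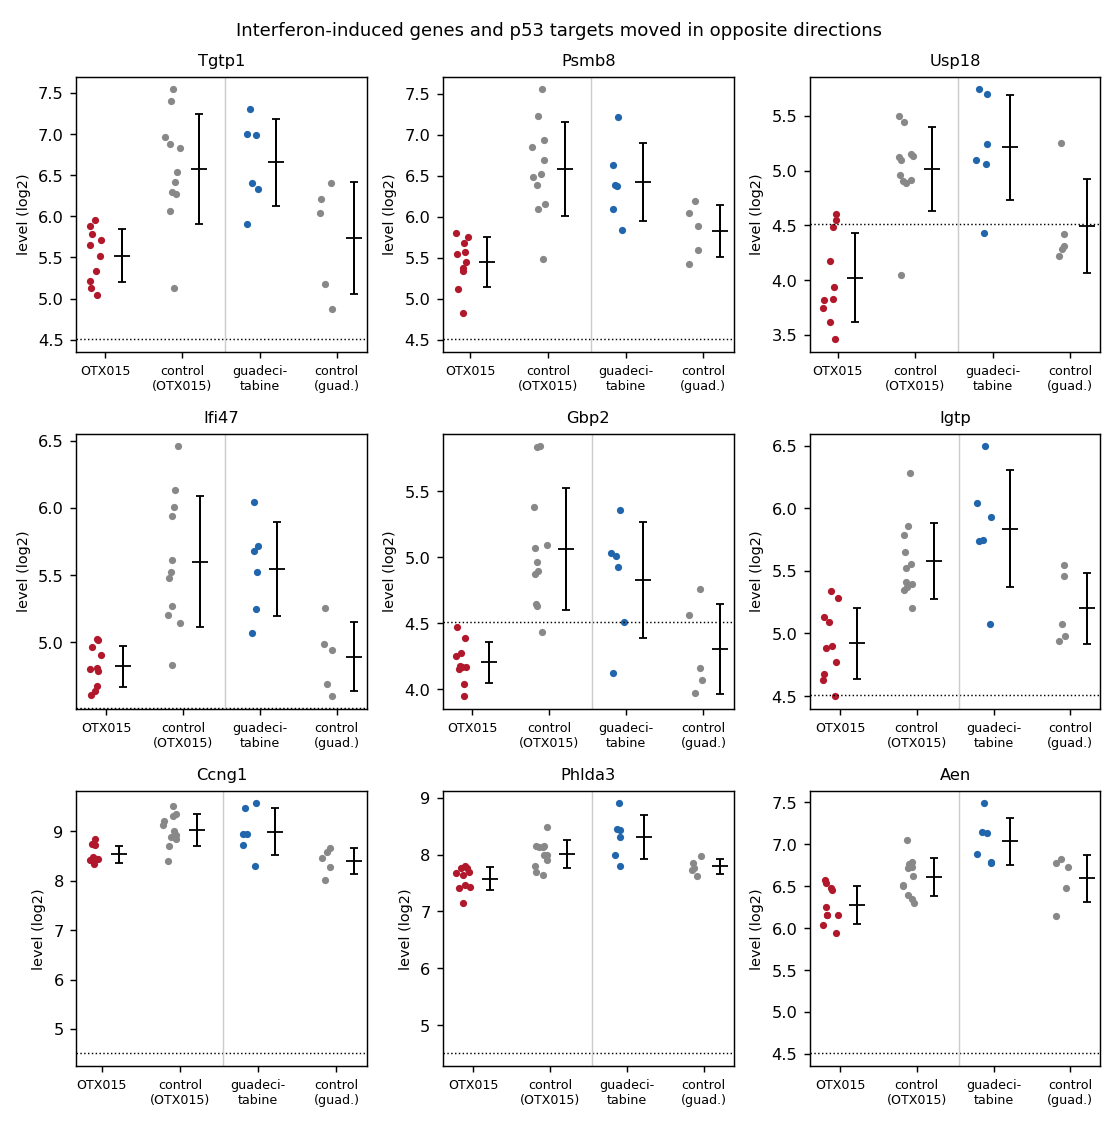
Levels (log2) of 9 genes lower with OTX015 and higher with guadecitabine, 1 point per tumour, with the group mean and SD as bar and the dotted line at the background of 4.51. In each panel OTX015 tumours stand left of their controls and guadecitabine tumours left of theirs; for Psmb8 the OTX015 medians are 5.50 against 6.52.

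**Figure D3:**
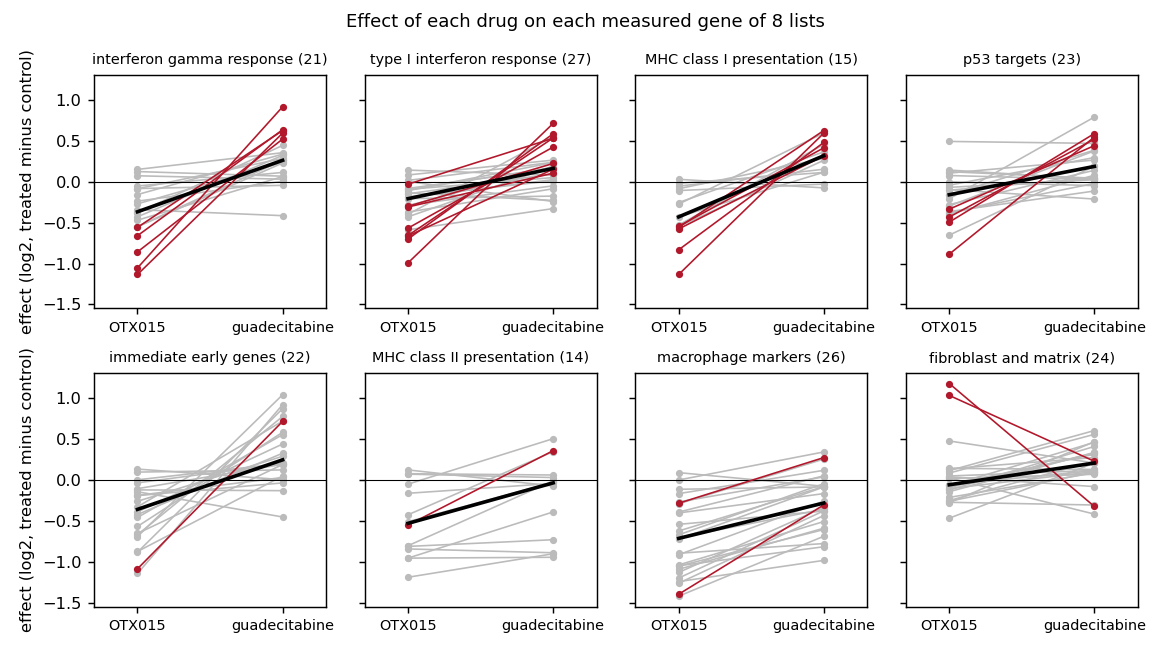
Effect (log2, treated minus control) of OTX015 and of guadecitabine on each measured gene of 8 lists, joined by a line; red lines are genes called in the difference, the black line joins the list medians, and the number measured stands in brackets. The interferon gamma list has a median of -0.37 with OTX015 and 0.26 with guadecitabine, while most macrophage markers lie below 0 with both.

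The class held further members. Cp, the copper ferroxidase ceruloplasmin, differed by -1.72 ± 0.48 (SE, adjusted p = 0.041), with effects of -0.68 with OTX015 and 1.04 with guadecitabine. In the guadecitabine tumours Cp ranged from 6.44 to 10.11, against 6.20 to 7.23 in their controls, and the highest of these tumours stood apart from the other 5. Its call was lost in 16 of 48 alternatives, 13 of them with 1 array left out, namely without OTX015-experiment control 2, 7 or 8, or guadecitabine-experiment control 1, 2 or 4, or OTX015 tumour 3, 5, 8, 9 or 10, or guadecitabine tumour 3 or 4 (adjusted p = 0.0508 to 0.0863). Abca13, a lipid transporter of the ABC family, differed by -1.33 ± 0.29 (SE, adjusted p = 0.0067), and Slc2a3, the glucose transporter GLUT3, by -0.99 ± 0.23 (SE, adjusted p = 0.0098) with effects of -0.31 with OTX015 and 0.68 with guadecitabine. Slc2a3 lost its call with median centring (adjusted p = 0.052), the mean of probe sets (0.0511) and the replicate block (0.0584). Abca13 lost its call with the mean of probe sets (adjusted p = 0.0798), its other probe set, below background, having a difference of -0.33. The efflux pump Abcg2 had effects of -0.28 with OTX015 and 0.59 with guadecitabine, the insulin-responsive glucose transporter Slc2a4 of -0.23 with OTX015 and 0.52 with guadecitabine, and the phosphatase Ptpn6, found mainly in blood cells, of -0.25 with OTX015 and 0.31 with guadecitabine.

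The reverse class, higher with OTX015 and lower with guadecitabine, held 22 genes. The largest differences were those of Upf1, the helicase of nonsense-mediated decay (1.06 ± 0.27 SE, adjusted p = 0.022), Ankrd24 (1.04 ± 0.22 SE, adjusted p = 0.0052), the transcriptional repressor Spen (1.02 ± 0.28 SE, adjusted p = 0.036) and Hps4, part of a complex that forms melanosomes (1.003 ± 0.18 SE, adjusted p = 0.0011). Rbm28, a nucleolar protein of ribosome assembly, differed by 0.87 ± 0.15 (SE, adjusted p = 0.0008) and Orc1, the largest subunit of the origin recognition complex, by 0.86 ± 0.17 (SE, adjusted p = 0.0029). The remodeller Chd8 (0.72), the mRNA export receptor Nxf1 (0.70) and the BET gene Brd3 (0.52) also belonged to it. Rbm28 lay at 7.20 to 7.57 (median 7.41) in the 10 OTX015 tumours, against 7.02 to 7.33 (median 7.22) in their 11 controls. Under guadecitabine, Rbm28 lay at 7.14 to 7.89 (median 7.40) in 6 tumours, against 8.11, 8.21, 8.54, 8.04 and 7.50 in the 5 controls of that experiment. Of the 6 guadecitabine tumours, 4 lay below all 5 controls.

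Hps4 lay at 6.52 to 7.16 (median 6.92) in the 10 OTX015 tumours, against 6.05 to 6.72 (median 6.35) in their 11 controls. Under guadecitabine, Hps4 lay at 6.29 to 6.97 (median 6.63) in 6 tumours, against 7.22, 7.22, 7.47, 7.11 and 6.54 in the 5 controls of that experiment. The OTX015 tumours were high within an overlapping range, and 3 guadecitabine tumours lay below the lowest of their controls. Orc1 lay at 5.17 to 5.78 (median 5.34) in the 10 OTX015 tumours, against 4.41 to 5.27 (median 4.77) in their 11 controls. Under guadecitabine, Orc1 lay at 4.42 to 5.04 (median 4.70) in 6 tumours, against 4.85, 5.30, 5.08, 5.18 and 4.64 in the 5 controls of that experiment. 9 of the 10 OTX015 tumours lay above all of their controls, and the guadecitabine groups overlapped.

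The control mean of the OTX015 experiment lay above that of the guadecitabine experiment in 0 of the 22 genes of this class, and in 57 of the 69 genes of the other class. It did so in 109 of the 135 genes higher with both drugs, in 10 of the 46 lower with both and in 64.1% of all genes above background. The part of this offset in the classes was not tested. With the nuclear-retained RNA mean as a covariate, 9 of the 22, 51 of the 69, 95 of the 135 and 28 of the 46 stayed in their class. Calls were lost for Upf1 without guadecitabine-experiment control 1 (adjusted p = 0.052), and for Brd3 without guadecitabine-experiment control 1 or 3 (adjusted p = 0.0612 to 0.0728). Spen lost its call without guadecitabine-experiment control 1, 3 or 4, or OTX015 tumour 6, or guadecitabine tumour 1, 2 or 4 (adjusted p = 0.0505 to 0.0954), Chd8 without guadecitabine-experiment control 2, 3 or 4, or OTX015 tumour 1, 6 or 10, or guadecitabine tumour 1, 2 or 4 (adjusted p = 0.0507 to 0.091) and Nxf1 without OTX015-experiment control 3, or guadecitabine-experiment control 1, 2, 3 or 4, or OTX015 tumour 1, 3, 6, 7 or 10, or guadecitabine tumour 1, 2, 3 or 4 (adjusted p = 0.0502 to 0.11). With the nuclear-retained RNA covariate calls were lost for Spen (adjusted p = 0.0893), Chd8 (0.091), Nxf1 (0.0758) and Brd3 (0.0521). Probe sets of 1 gene did not all give the same value. A second Rbm28 probe set gave a difference of 1.14 and a second Ankrd24 probe set above background gave -0.02. With the mean of their probe sets, Ankrd24 had a difference of 0.35 (adjusted p = 0.0663) and Spen of 0.45 (adjusted p = 0.0564). On that mean Chd8 had a difference of 0.31 (adjusted p = 0.0687), Nxf1 of 0.49 (adjusted p = 0.0798) and Brd3 of 0.02. A second Orc1 probe set, below background, gave 0.32.

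In other genes the effect of OTX015 was the larger. Lum, the matrix proteoglycan lumican, differed by 1.50 ± 0.31 (SE, adjusted p = 0.004), and Ccl28, a chemokine of mucosal surfaces, by 1.07 ± 0.10 (SE, adjusted p = 1.2e-07). Ccl28 lay at 4.61 to 4.97 (median 4.81) in the 10 OTX015 tumours, against 3.61 to 4.11 (median 3.81) in their 11 controls. Under guadecitabine, Ccl28 lay at 3.64 to 3.94 (median 3.80) in 6 tumours, against 3.68, 3.93, 3.99, 4.07 and 3.79 in the 5 controls of that experiment. All 10 OTX015 tumours lay above all 11 controls, which 0.999% of genes above background did in either direction, while the guadecitabine groups overlapped. Every tumour of the other groups lay below background, so Ccl28 passed the background filter through the OTX015 tumours alone. The other Ccl28 probe sets, below background, gave differences of -0.25 and -0.05. Lum lay at 4.63 to 6.50 (median 5.46) in the 10 OTX015 tumours, against 3.77 to 4.91 (median 4.41) in their 11 controls. Under guadecitabine, Lum lay at 3.46 to 4.17 (median 3.65) in 6 tumours, against 4.30, 3.88, 3.71, 4.21 and 4.29 in the 5 controls of that experiment. 9 of the 10 OTX015 tumours lay above all of their controls, and every tumour of the guadecitabine experiment lay below background. The median of the OTX015 controls lay below background too. The fibroblast and matrix list gave 2 genes of 24 called higher in the difference, against 1.39% of all genes. These were Lum and the basement membrane collagen Col15a1 (1.04 with OTX015 and 0.23 with guadecitabine). The list medians were -0.06 with OTX015 and 0.21 with guadecitabine. Of its 24 differences 17 lay below 0, and at an unadjusted p under 0.05 (limma) 3 were higher and 5 lower.

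In a further set the effect of guadecitabine was the larger. Xist, the RNA that coats the inactive X chromosome, had the largest difference of the genes named here, -2.64 ± 0.47 (SE, adjusted p = 0.00098). Xist lay at 5.86 to 6.79 (median 6.27) in the 10 OTX015 tumours, against 5.92 to 7.78 (median 6.42) in their 11 controls. Under guadecitabine, Xist lay at 5.998 to 9.54 (median 6.88) in 6 tumours, against 4.97, 4.95, 4.83, 4.73 and 5.03 in the 5 controls of that experiment. All 6 guadecitabine tumours lay above all 5 controls, a separation in either direction that 0.957% of genes above background had, and the highest stood apart from the other 5. The controls of the OTX015 experiment lay in the range of the guadecitabine tumours rather than in that of the guadecitabine controls. The other Xist probe sets gave differences of -1.56 and -1.30. Mcam, a cell adhesion molecule of melanoma and pericytes, had effects of 0.20 with OTX015 and 1.43 with guadecitabine and differed by -1.23 ± 0.31 (SE, adjusted p = 0.022). It was the 1 called member of 19 endothelial and pericyte markers, against 2.15% of all genes called lower. The Mcam call was lost with cyclic loess (adjusted p = 0.0522). Rhox5, an X-linked homeobox gene of the germline, had effects of -0.16 with OTX015 and 1.17 with guadecitabine and differed by -1.32 ± 0.30 (SE, adjusted p = 0.0093). Rhox5 lay at 4.18 to 4.54 (median 4.30) in the 10 OTX015 tumours, against 4.24 to 4.84 (median 4.42) in their 11 controls. Under guadecitabine, Rhox5 lay at 4.36 to 6.97 (median 4.99) in 6 tumours, against 4.04, 4.18, 4.08, 4.05 and 4.47 in the 5 controls of that experiment. In the OTX015 experiment both groups stayed near background, with medians below it. 5 of the 6 guadecitabine tumours lay above all of their controls, and those 5 controls all lay below background.

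Of 18 germline and cancer-testis genes, 2 lay above background and 2 were called lower in the difference, against 2.15% of all genes. These were Rhox5 and, below background, Tex19.1 (-0.24 with OTX015 and 0.28 with guadecitabine), whose call was lost without guadecitabine-experiment control 3 or 4 (adjusted p = 0.0535 to 0.0648). In the average of the effects 5 of the 18 were called higher and 0 lower, against 4.44% and 1.38% of all genes. With OTX015 4 were called higher and 1 lower, against 1275 and 1170 of all 17097 genes. With guadecitabine 2 were called higher and 0 lower, against 69 and 34. The signal ligand Tgfb1 was called with effects of -0.10 with OTX015 and 0.62 with guadecitabine. That call was lost without guadecitabine-experiment control 3 (adjusted p = 0.0512). The linker histone H1f2 had effects of -0.33 with OTX015 and 0.89 with guadecitabine, and its call at adjusted p = 0.048 was lost in 31 of 48 alternatives, 23 of them with 1 array left out (adjusted p = 0.0502 to 0.107). In the positive direction Rims2, a presynaptic scaffold protein, differed by 1.58 ± 0.39 (SE, adjusted p = 0.016) and Bnc2, a zinc finger protein of pigment and skin cells, by 1.14 ± 0.30 (SE, adjusted p = 0.025). Rims2 lay at 3.61 to 4.79 (median 4.40) in the 10 OTX015 tumours, against 3.23 to 5.01 (median 4.11) in their 11 controls. Under guadecitabine, Rims2 lay at 4.49 to 5.39 (median 4.93) in 6 tumours, against 5.97, 6.83, 7.41, 6.35 and 5.24 in the 5 controls of that experiment. The guadecitabine controls were the high group, and the other 3 groups lay low. Calls were lost for Rims2 without guadecitabine-experiment control 3 (adjusted p = 0.0523) and for Bnc2 without guadecitabine-experiment control 1, 2 or 3 (adjusted p = 0.0536 to 0.0763). With the replicate block both lost their call (adjusted p = 0.051 for Rims2 and 0.056 for Bnc2). Bnc2 also lost it with the nuclear-retained RNA covariate (adjusted p = 0.0691). The centrosome protein Cep192 (-0.03 with OTX015 and -1.15 with guadecitabine), the ribosome assembly factor Wdr75 (0.15 with OTX015 and -0.94 with guadecitabine) and the phosphatase subunit Ankrd52 (-0.05 with OTX015 and -1.10 with guadecitabine) had guadecitabine effects of the same kind. For these the control mean of the OTX015 experiment minus that of the guadecitabine experiment was -1.84, -1.90 and -2.39, in that order. Ankrd52 lost its call without OTX015-experiment control 2, or guadecitabine-experiment control 1, 2 or 3, or OTX015 tumour 5 or 7, or guadecitabine tumour 1 or 2 (adjusted p = 0.0504 to 0.0976). The Ankrd52 call was also lost with the nuclear-retained RNA covariate (adjusted p = 0.0977) and the replicate block (0.0958). With the replicate block Cep192 lost its call too (adjusted p = 0.0708).

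**Figure D4:**
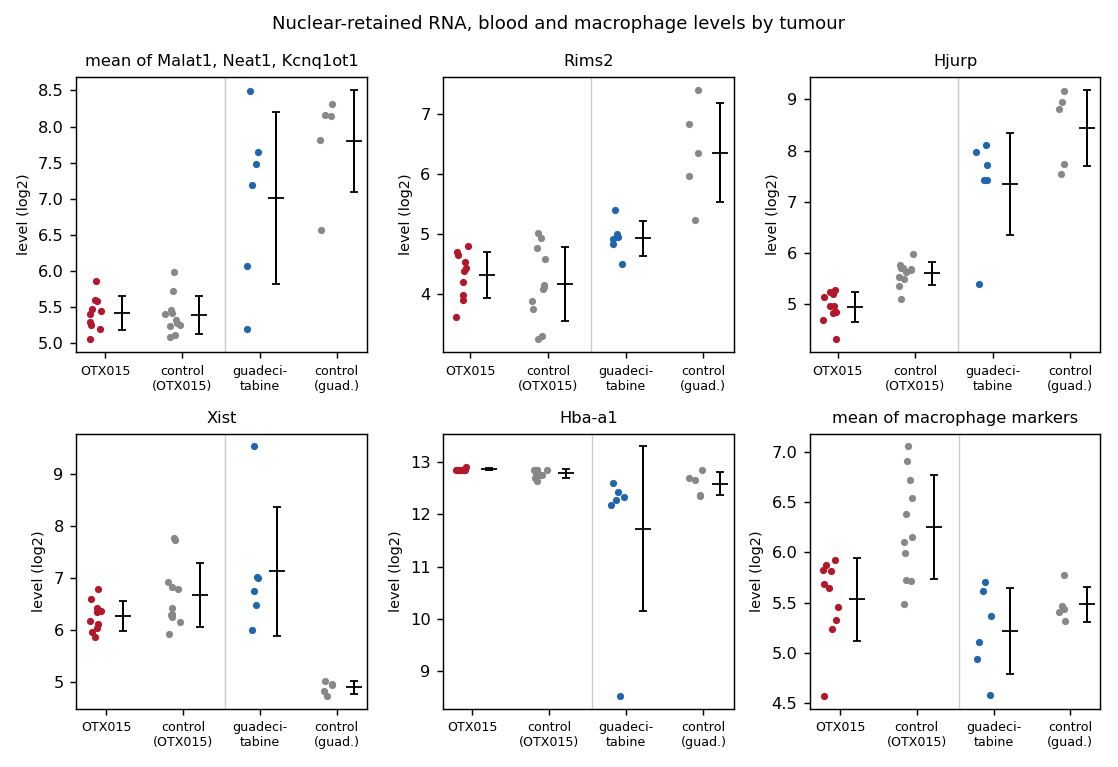
Level (log2) of the nuclear-retained RNA mean, Rims2, Hjurp, Xist, the haemoglobin gene Hba-a1 and the macrophage marker mean, 1 point per tumour, with group mean and SD as bar. The nuclear-retained RNA mean spans 5.19 to 8.50 in guadecitabine tumours and 6.57 to 8.31 in their controls, and 1 guadecitabine tumour has Hba-a1 at 8.53 and Xist at 9.54.

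The average of both effects was called in 995 genes (5.82%), 759 higher (4.44%) and 236 lower (1.38%), against 499 and 365 with cyclic loess and 148 and 2093 on the deposited values. Without the third control tumour of the guadecitabine experiment the counts were 463 and 129. The 135 genes higher with both drugs were led by Tnfrsf11b, the decoy receptor osteoprotegerin, with an average effect of 1.39 ± 0.27 (SE, adjusted p = 0.0018). Cox7a1, the muscle form of a cytochrome c oxidase subunit, followed with 1.32 ± 0.20 (SE, adjusted p = 8.2e-05), and Ccn2, a matricellular growth factor and YAP target, with 0.97 ± 0.17 (SE, adjusted p = 0.00047). Tubb3, a neuronal tubulin (0.88 ± 0.16 SE, adjusted p = 0.00096), Tbx2, a T-box repressor of the melanocyte lineage (0.71 ± 0.17 SE, adjusted p = 0.0085), the matrix protein Tinagl1 (0.70 ± 0.11 SE, adjusted p = 0.00025), the sodium pump regulator Fxyd3 (0.64 ± 0.09 SE, adjusted p = 3.5e-05) and Scrg1 (1.04 ± 0.28 SE, adjusted p = 0.025) completed the leading 8. Scrg1 lost its call without guadecitabine-experiment control 3, or guadecitabine tumour 3 (adjusted p = 0.052 to 0.0538).

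Tnfrsf11b lay at 4.99 to 7.37 (median 6.85) in the 10 OTX015 tumours, against 3.86 to 6.52 (median 6.12) in their 11 controls. Under guadecitabine, Tnfrsf11b lay at 6.52 to 8.48 (median 7.64) in 6 tumours, against 6.14, 4.87, 5.16, 6.40 and 6.06 in the 5 controls of that experiment. All 6 guadecitabine tumours lay above all 5 controls, whereas 1 OTX015 tumour lay far below the other 9. Cox7a1 lay at 4.70 to 6.86 (median 5.32) in the 10 OTX015 tumours, against 3.35 to 4.48 (median 4.12) in their 11 controls. Under guadecitabine, Cox7a1 lay at 4.26 to 6.07 (median 5.08) in 6 tumours, against 3.77, 3.54, 3.95, 4.72 and 4.01 in the 5 controls of that experiment. All 10 OTX015 tumours lay above their 11 controls, and the guadecitabine groups overlapped through 1 high control. Every other control of both experiments lay below background, so Cox7a1 passed the background filter through the treated tumours. Ccn2 lay at 5.54 to 6.75 (median 6.14) in the 10 OTX015 tumours, against 4.72 to 6.12 (median 5.58) in their 11 controls. Under guadecitabine, Ccn2 lay at 6.77 to 8.02 (median 7.02) in 6 tumours, against 6.27, 5.61, 6.86, 5.39 and 6.05 in the 5 controls of that experiment. Both pairs of groups overlapped at their edges. Tyr, tyrosinase, the first enzyme of melanin synthesis, belonged to the class with 0.36 with OTX015 and 0.47 with guadecitabine, and Col15a1 did too. Tnfrsf11b, Ccn2 and Fxyd3 passed each drug's own test as well, as did Lifr and Rbm26 among the genes lower with both.

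The 46 genes lower with both drugs held the LIF receptor subunit Lifr, with an average of -1.28 ± 0.17 (SE, adjusted p = 1.2e-05), and the actin-binding peptide gene Tmsb4x, with -0.998 ± 0.24 (SE, adjusted p = 0.0088). Genes of MHC class II were among the leading 8: H2-Aa (-1.04 ± 0.26 SE, adjusted p = 0.015), H2-Eb1 (-0.95 ± 0.24 SE, adjusted p = 0.016) and the invariant chain Cd74 (-0.86 ± 0.25 SE, adjusted p = 0.034). The matrix protein Tgfbi (-1.21 ± 0.36 SE, adjusted p = 0.042), the centromere histone chaperone Hjurp (-0.88 ± 0.20 SE, adjusted p = 0.0055) and the RNA-binding protein Rbm26 (-0.84 ± 0.11 SE, adjusted p = 9.7e-06) made up the rest. Lifr lay at 4.47 to 5.75 (median 5.31) in the 10 OTX015 tumours, against 5.03 to 6.89 (median 6.11) in their 11 controls. Under guadecitabine, Lifr lay at 4.78 to 5.83 (median 5.06) in 6 tumours, against 7.30, 6.22, 7.11, 6.72 and 6.45 in the 5 controls of that experiment. The guadecitabine groups did not overlap, and the OTX015 groups overlapped. Of the other Lifr probe sets, 1 lay above background and had an average effect of 0.15. H2-Aa lay at 6.22 to 7.81 (median 6.68) in the 10 OTX015 tumours, against 6.97 to 9.53 (median 7.93) in their 11 controls. Under guadecitabine, H2-Aa lay at 5.12 to 7.16 (median 6.22) in 6 tumours, against 6.74, 6.82, 7.32, 7.12 and 7.28 in the 5 controls of that experiment. In the OTX015 experiment the treated tumours lay low with overlap, and of the guadecitabine tumours 4 lay below all controls and 2 within their range.

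Rbm26 lay at 4.17 to 4.82 (median 4.53) in the 10 OTX015 tumours, against 5.08 to 5.71 (median 5.43) in their 11 controls. Under guadecitabine, Rbm26 lay at 5.13 to 6.05 (median 5.46) in 6 tumours, against 5.70, 6.94, 5.92, 6.50 and 6.44 in the 5 controls of that experiment. All 10 OTX015 tumours lay below all 11 controls, and 4 of the 6 guadecitabine tumours below all 5 of theirs. Cd74 lost its call without guadecitabine-experiment control 3, 4 or 5, or guadecitabine tumour 3 or 6 (adjusted p = 0.0526 to 0.0744). Tgfbi lost it without OTX015-experiment control 2, 7, 8 or 9, or guadecitabine-experiment control 1, 3, 4 or 5, or OTX015 tumour 1, 2, 5, 8, 9 or 10, or guadecitabine tumour 1, 3 or 6 (adjusted p = 0.0515 to 0.0912). The receptor tyrosine kinase gene Kit (-0.60 with OTX015 and -0.90 with guadecitabine), the calcium-binding protein S100a4 (-0.80 with OTX015 and -0.76 with guadecitabine), the de novo methyltransferase Dnmt3b (-0.46 with OTX015 and -0.42 with guadecitabine) and the interferon regulatory factor Irf3 (-0.28 with OTX015 and -0.24 with guadecitabine) were further members.

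In the class II list the directions were not the same. Its structural genes Cd74, H2-Aa and H2-Eb1 were lower with both drugs, while H2-DMb1, a subunit of the factor that loads class II peptides, was lower with OTX015 and higher with guadecitabine (-0.55 with OTX015 and 0.36 with guadecitabine, difference -0.91 ± 0.22 SE, adjusted p = 0.014). Over the 14 genes the medians were -0.53 with OTX015 and -0.03 with guadecitabine. Of the macrophage markers, 16 of 26 were called lower with OTX015, against 6.84% of all genes, and 0 with guadecitabine, against 0.199% (0 at an unadjusted p under 0.05), with medians of -0.71 and -0.28. The complement gene C1qb had effects of -1.42 with OTX015 and -0.69 with guadecitabine, the mannose receptor Mrc1 of -1.24 with OTX015 and -0.98 with guadecitabine and the signalling adaptor Tyrobp of -1.05 with OTX015 and -0.81 with guadecitabine. Of the 26 markers 19 had both effects below 0 and 1 both above. In 5, among them Mertk (-0.29 with OTX015 and 0.26 with guadecitabine), only the guadecitabine effect was above 0, and in 1 only the OTX015 effect. In the difference 2 of 26 markers were called, both lower, against 2.15% of all genes. They were Fcrls (-1.09 ± 0.31 SE, adjusted p = 0.04) and Siglec1 (-0.56 ± 0.13 SE, adjusted p = 0.012). Siglec1 lost its call with the mean of probe sets (adjusted p = 0.0638), its other probe sets, below background, having differences of -0.02 and -0.17. Fcrls lost its call without guadecitabine-experiment control 1, 2, 3 or 4, or OTX015 tumour 5, or guadecitabine tumour 1, 2 or 4 (adjusted p = 0.0514 to 0.0888), and with the nuclear-retained RNA covariate (adjusted p = 0.0856). The macrophage means per tumour are given above with the groups, and their part in the class II and interferon results was not tested.

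**Figure D5:**
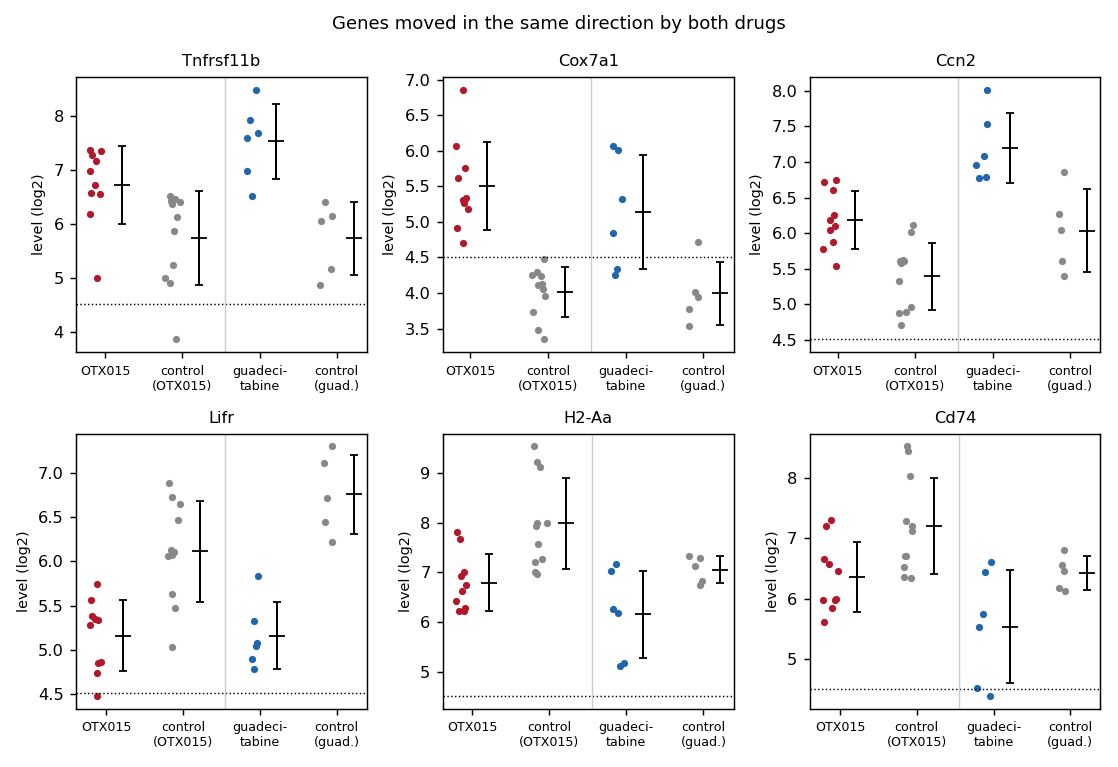
Levels (log2) of 3 genes higher with both drugs (Tnfrsf11b, Cox7a1, Ccn2) and 3 lower with both (Lifr, H2-Aa, Cd74), 1 point per tumour, with group mean and SD as bar and the dotted line at the background of 4.51. The guadecitabine groups are apart for Tnfrsf11b and Lifr, and the OTX015 groups for Cox7a1.

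Counts of called genes in the difference, of which all genes gave 3.54%, were 0 of 28 MYC target and ribosome biogenesis genes, 0 of 27 G1/S and replication genes, 0 of 28 G2/M genes and 0 of 18 cholesterol synthesis genes with limma. At an unadjusted p under 0.05 they were 5 higher, 1 higher, 0 and 5 lower. Their median differences were 0.30, 0.28, 0.12 and -0.30 in that order. The erythroid markers had a median difference of 1.01 over 4 genes, with 0 called and 1 higher at an unadjusted p under 0.05. Hba-a1 had effects of 0.08 with OTX015 and -0.86 with guadecitabine, a difference of 0.94, and its other probe sets gave differences of 2.25 and 1.36. In the probe set used for the gene 1 guadecitabine tumour held 8.53 against 12.17 to 12.60 in the other 5. This probe set is among the brightest, where quantile normalization leaves little room for a difference. Among the drugs' own targets, Brd2 (0.12 ± 0.14 SE, adjusted p = 0.68), Dnmt1 (0.26 ± 0.21 SE, adjusted p = 0.54), Dnmt3a (0.33 ± 0.23 SE, adjusted p = 0.47) and the methylation cofactor Uhrf1 (0.41 ± 0.28 SE, adjusted p = 0.47) did not pass. Hexim1, the P-TEFb inhibitor that rises in many cells given BET inhibitors (-0.11 ± 0.21 SE, adjusted p = 0.83), and Myc (0.31 ± 0.33 SE, adjusted p = 0.68) did not either. The demethylation enzyme gene Tet3 was called at -0.76 ± 0.20 (SE, adjusted p = 0.028), with effects of -0.68 with OTX015 and 0.08 with guadecitabine. That call was lost without guadecitabine-experiment control 1, 3 or 4, or guadecitabine tumour 3 or 6 (adjusted p = 0.0505 to 0.071), and with cyclic loess (adjusted p = 0.0637).

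The OTX015 cultures gave a readout that the tumour contrast did not use. Culture effects are on the deposited log2 values, without further normalization. Of the 69 genes lower with OTX015 and higher with guadecitabine in tumours, 31 were lower and 16 higher in OTX015-treated than in untreated cultures, against 33.5% lower and 25.9% higher of all genes above background in tumours. Gbp2 changed by -1.33, Psmb8 by -0.85, Igtp by -0.58 and Tgtp1 by -0.55 in cultures, each called, and Cp by -2.19. Usp18 was higher there, by 0.46, as were Ccng1, by 0.93, and Trp53inp1, by 1.53. Of the 135 genes higher with both drugs in tumours, 50 were higher and 37 lower in OTX015 cultures, and of the 46 lower with both, 14 were lower and 8 higher. Lifr, lower in tumours, was higher in cultures by 1.68. No guadecitabine cultures are among the samples used.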

How the data were processed

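RNA was measured in 40 samples on Affymetrix arrays, 1 array each, and all 40 columns were used. The submitters' processing notes name RMA and the Transcriptome Analysis Console, without versions, for the deposited log2 values of 45141 probe sets. Deposited means were lower on the arrays of OTX015 tumours, so the 32 tumour arrays were quantile normalized together. Cultures were fitted on their own, on the deposited values without further normalization.

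Probe sets were named through GEO's platform annotation, with symbols updated through a RefSeq table of GRCm38.p6. Of these, 28898 named 1 gene, 551 several and 15692 none here. A gene took its brightest probe set over the 40 arrays.

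The 4 tumour groups were fitted in limma 3.58.1 (R 4.3.3), two-sided, with adjustment over 17097 genes and a threshold of 0.05. The contrasts were each drug's effect, their difference and their average. The background of 4.51 is the 95th percentile of 81 receptor probe sets' means. On simulated data the difference recovered 55.2% of 1.5-fold, 88.1% of 2-fold and 100% of 4-fold changes, with 5 false calls among 17097 genes. Whether the spread in those data matches that of each tumour group was not tested. On the tumour arrays, 5 of 76 receptor genes were called in the difference, against 3.54% of all genes. OTX015 called 13 of the 76, against 14.3% of all genes. The average called 3, against 5.82%, and guadecitabine 0, against 0.602%.

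Genes named were the 8 largest of each direction and class, the drugs' targets, and up to 3 members of each of 33 lists by smallest p, without predicted genes. Further members of classes and lists, among them Siglec1, C1s1, Tyr, Kit and Irf3, were named after their values were seen. Members and lists were chosen with earlier results of these data known.

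Alternatives covered the scaling, the arrays fitted, dim genes, probe sets, variances, thresholds, a replicate block and each array left out. An RNA covariate and 2 further sets of omitted arrays were added after seeing the data. Arrays have no read depth, so their number limits the precision.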

Additional observations from a re-analysis of the deposited data

Results flagged for a closer look

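Of 252 sets of values, those of 84 genes in the groups of 5, 6 and 10 tumours, 18 held a tumour set apart from the rest of its group by Dixon's test at the 95% level, which chance gives in about 1 in 20 sets.

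In guadecitabine tumour 6, Xist was high at 9.54, Brd2 was high at 8.56 and Hba-a1 was low at 8.53. In guadecitabine tumour 2, the centromere histone chaperone gene Hjurp was low at 5.39 and the histone gene H3c15 was high at 2.89, below background. Among the controls of the guadecitabine experiment, Usp18 was high at 5.25 in tumour 5 and Uhrf1 at 8.81 in tumour 3.

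OTX015 tumour 4 stood apart for 6 genes. It was low for Tnfrsf11b at 4.99 and high for Scrg1 at 7.37, against 4.07 to 4.96 in the other 9. It was also high for Tbx2 at 6.94, Brd2 at 8.50, Hexim1 at 7.76 and the receptor kinase gene Mertk at 5.34. OTX015 tumour 1 was low for Tmsb4x at 8.53 and for Myc at 6.58, and high for the germline gene Tdrd1 at 3.29, below background. Ankrd24 was high at 6.999 in OTX015 tumour 5. Hba-a1 was at 12.91 in OTX015 tumour 9 and at 12.85 in the other 9, where quantile normalization sets the brightest probe sets of all arrays to nearly the same value. All values are log2 levels.

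Probe sets outside the gene-level results also held calls. In the difference of the effects, 874 of 15692 probe sets that name no gene here and 38 of 551 that name several genes passed an adjusted p under 0.05 with limma, of which 302 and 23 lay above background.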

How the results depend on the processing

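Counts of called genes moved with the scaling and with single arrays, while no called value of a named gene changed sign. Over 140 results for single genes under 48 alternatives, 6233 values kept their side of the threshold, 246 no longer passed, and 211 newly passed. The sign changed in 16 values, all of them called neither here nor under the alternative. Counts below are compared with 238 genes higher and 368 lower in the difference, 69 lower with OTX015 and higher with guadecitabine, 22 the reverse, 135 higher and 46 lower with both, 103 called with guadecitabine, 2445 with OTX015, and an average higher in 759 and lower in 236.

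On the deposited values, with the arrays of OTX015 tumours lower throughout, these counts were 76, 5160, 318, 6, 16, 225, 68, 8818, 148 and 2093 in that order. At an adjusted p under 0.01 they were 90, 119, 29, 9, 62, 25, 29, 1248, 311 and 76. At an adjusted p under 0.1 the difference gave 401 higher and 755 lower, guadecitabine 228 and the average 1240 higher and 453 lower. Cyclic loess gave 228 lower in the difference, classes of 32, 35, 70 and 82, and averages of 499 higher and 365 lower. With median centring the reverse class held 13, the class higher with both 86, and guadecitabine called 68. With all 40 arrays in 1 fit the difference was lower in 613, the opposite classes held 105 and 34, guadecitabine called 257 and the average was lower in 364. Array weights gave classes of 107, 35, 226 and 95, 3808 genes with OTX015, averages of 1209 and 413, and 2 genes passing with both drugs. A variance for each group gave 14 in the reverse class and 47 with guadecitabine. Genes above background alone gave 65 and 134 in the difference, 695 with OTX015 and 334 and 138 in the average, out of fewer genes tested. Of those same genes, the fit of all genes called 100 and 183 in the difference, 944 with OTX015 and 384 and 152 in the average. The cause of these shifts was not tested.

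Leaving out 1 of the 32 arrays at a time, the ranges were 167 to 294 higher and 233 to 533 lower in the difference, 41 to 111, 11 to 41, 83 to 189 and 26 to 65 in the classes, 35 to 280 with guadecitabine, 2143 to 2550 with OTX015, 463 to 955 and 129 to 344 in the average, and 0 to 1 passing with both drugs. The lowest of these came without control tumour 3 of the guadecitabine experiment, except for OTX015 and for the genes passing with both drugs.

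The tumours were fitted as unpaired. Same-numbered tumours had correlations of their deviations between -0.534 and 0.43 in the OTX015 experiment and between -0.44 and -0.057 in the guadecitabine experiment. Differently numbered tumours were not compared, so these values cannot show whether the replicate numbers pair the tumours. With the replicate block the difference was lower in 244 genes and guadecitabine called 55. The block joined same-numbered tumours across both experiments, which the labels do not link. Alternatives chosen after seeing the data gave 38 genes in the reverse class and 247 with guadecitabine under the nuclear-retained RNA covariate, and 162 with guadecitabine without the 3 arrays of low spread. The precision is limited by the number of arrays, above all the 5 controls of the guadecitabine experiment, and genes near background have compressed differences.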
